A study of Rattus norvegicus with 18 samples.

Results

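The genes of the cytosolic ribosome's own proteins were followed through femoral fracture healing in the rat. A gene was a member if an array probe set carried a single gene symbol that began with Rpl or Rps and a digit, or with Rplp. The Rps6k kinase genes and symbols ending in -ps and a number, which mark pseudogenes, were left out. This gave 41 genes of the 4736 that the array names one by one, 30 of them of the large (60S) and 11 of the small (40S) subunit. They were read by 59 probe sets. The 15 genes with several probe sets were each represented by the probe set of highest mean log2 signal.

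Female Sprague-Dawley rats were 6 weeks (young), 26 weeks (adult) or 52 weeks (older) of age at surgery. The no-fracture rats were sham controls. The others had a closed mid-shaft fracture of the left femur held by an intramedullary rod and were killed 3 days or 1, 2, 4 or 6 weeks later. The sample was a segment of bone centred on the fracture with callus, cortical bone and marrow together, so that fewer cells of a type and less RNA per cell cannot be told apart. There were 18 arrays, 1 for each of 3 ages at each of 6 times, each with pooled RNA of 2 rats. The 3 ages therefore stood as replicates of a time and the 6 times as replicates of an age, and p-values measure the spread between these arrays.

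Each ribosome joins a large and a small subunit built from ribosomal RNA and one copy of most of the ribosomal proteins. The small subunit decodes the messenger RNA and the large subunit forms the peptide bond. The messenger RNAs of these proteins start with a run of pyrimidines, the terminal oligopyrimidine tract, through which mTOR signalling sets how strongly they are translated. Mutations of several of these genes cause Diamond-Blackfan anaemia, a failure of red cell precursors in the marrow. Cells that proliferate or secrete much protein, such as those of a callus, generally hold many ribosomes.

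The probe sets of these genes gave high signals, in part by choice, since the brightest one stood for each gene. The 41 had a median percentile of 98.17 among all probe sets tested by mean log2 signal, and 31 of them lay in the brightest 5%. The probe sets of Rps29, Rpl27a, Rplp0, Rps16 and Rpl19 were the brightest, with geometric means over 18 arrays of 22189, 14054, 13526, 13338 and 11847. Those of Rps24, Rpl17, Rpl30, Rpl5 and Rplp1l3 were the dimmest at 374.5, 210.6, 200.3, 91.7 and 21.3. A probe set's signal also depends on its probes, so these values do not rank the messenger RNAs. Rplp1l3, annotated as a relative of the stalk protein gene Rplp1, had arrays below a signal of 20, the floor set under all values, and the other 40 genes had none.

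Where the promoter table of RefSeq (build GRCr8) held the gene, the letters around the transcription start were read. It matched 37 of the 41 genes. The sequences below show 20 bases before and 10 bases from the annotated start, 5′ to 3′ on the transcript strand, with each CTTTC in capitals. They set genes that rose after fracture, by the probe set that stood for each, beside genes that did not. Rpl3 is set beside its muscle form Rpl3l.

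Rpl23 (chr10:83272175-83272204, minus strand): cttgtactaacttcCTTTCtgactCTTTCc
Rpl19 (chr10:83519044-83519073, plus strand): gagcccgcgaccagcaagctCTTTCCTTTC
Rpl35a (chr11:81235012-81235041, minus strand): gcgcggcgggtcttgccttcctCTTTCcgc
Rpl14 (chr8:129163600-129163629, plus strand): cggcagggcgggccctctcccttctcgctg
Rps27l (chr8:76443638-76443667, plus strand): ttatagtttattcatttgtcattatttgtg
Rps3 (chr1:163195767-163195796, minus strand): ttcCTTTCCTTTCagcggcgcgcggcagca
Rpl31 (chr9:49143091-49143120, plus strand): ccatcccacaatccctcgcgcCTTTCcttt
Rplp0 (chr12:46718381-46718410, minus strand): ctggtgaccgcaccgcacttctctcgccag
Rpl3 (chr7:113507981-113508010, minus strand): ctgcaccagcgcctgctcgatctctatcgg
Rpl3l (chr10:14258426-14258455, plus strand): catttgacctctggtgcctggtggggaggt

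CTTTC stood on the transcript strand within the 30 bases before and 30 bases after the start in 19 of 37 members (51.35%), against 7.838% of 27457 promoters. On the other strand, as GAAAG, it stood in 1 of 37 (2.7%), against 7.499%. TATAAA, which cannot overlap CTTTC, was found in 1 of 37 on the transcript strand (2.7%, against 1.635%) and in 2 on the other (5.41%, against 1.016%). Rpl3l held neither motif on either strand, and Rpl3 held TATAAA on the other strand only. The median log2 change at 3 days was 0.26 for the 19 genes with CTTTC and 0.31 for the 18 without, and 9 genes of each kind were called higher. At 1, 2, 4 and 6 weeks 5, 7, 4 and 3 genes with CTTTC and 8, 8, 5 and 7 without it were called higher. The letters are a description and not a test of any factor.

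As a sum, ribosomal protein signal took a larger part of the array after fracture. The 41 genes held 4.21%, 4.27% and 3.96% of the summed signal in young, adult and older rats with no fracture. At 3 days they held 5.31%, 5.55% and 5.19%. The mean was 4.15% ± 0.16 (SD, n = 3) with no fracture and 5.35% ± 0.18 at 3 days. Shares of 4.65% to 4.84% followed at 1 week, 4.65% to 4.998% at 2 weeks, 4.66% to 4.71% at 4 weeks and 4.43% to 4.93% at 6 weeks. Every one of the 15 fractured arrays lay above the 3 arrays with no fracture, and the 3-day arrays lay above all others. The share was described without a test.

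**Figure D1:**
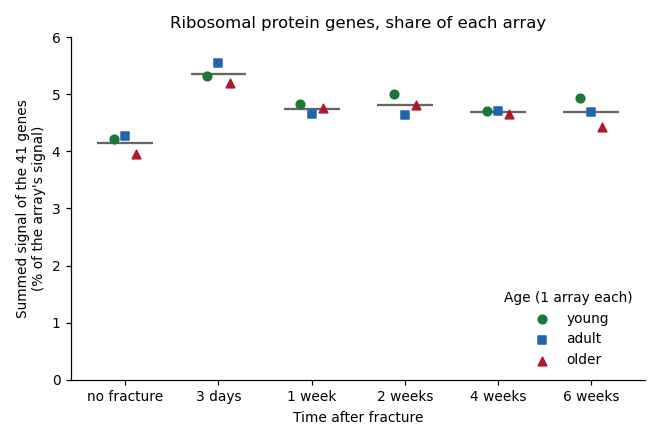
The vertical axis gives the summed signal of the 41 ribosomal protein genes as a percent of the summed signal of all non-control probe sets of the array, the horizontal axis the time after fracture; each point is 1 array, marked by age, and lines are the means of 3 arrays. The means are 4.15% with no fracture and 5.35% at 3 days, and the later points lie between 4.43% and 4.998%.

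Several measures of the arrays moved with fracture. The ratio of 3′ to 5′ actin control signal, which reflects RNA quality, was 2.10 to 2.61 with no fracture and 1.48 to 1.88 at 3 days, reaching 1.89 to 2.72 at 6 weeks. Each array was scaled to the same trimmed mean (500.7 to 500.8), so that a signal is relative to the others on its array. The summed signal of 9 red cell precursor genes was 70978 to 140173 with no fracture and 8064 to 17567 at 3 days, and that of 5 neutrophil genes 40908 to 53145 and 1008 to 14052. By limma all 9 red cell and all 5 neutrophil genes were lower at 3 days, and 13 of 16 genes of fibrous and bone matrix and 3 of 6 cartilage genes were higher. Of 7 genes of B and T cells 2 were lower. Over all probe sets 18.9% were called higher and 20.4% lower at 3 days. None of these marker genes was below the floor on every array. Their part in the ribosomal results was not tested.

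At 3 days, the time of inflammation and early cell division, 19 ribosomal protein genes rose and 4 fell. By limma, with time and age as factors and Benjamini-Hochberg adjustment over all non-control probe sets (called at an adjusted p below 0.05), 18.9% of probe sets were called higher and 20.4% lower at that time. The members' shares were 46.3% and 9.76%. Their median log2 change was 0.26, or 1.20-fold, against -0.08 over all probe sets. Changes ran from -2.13 for Rpl3l to 1.54 for Rpl14. The large subunit had 14 of 30 genes higher and 3 lower, the small subunit 5 of 11 and 1. With the actin ratio as a covariate 13 members were called and the median was 0.41, and without the adult arrays 13 were called. Quantile normalization gave a median of 0.47, and a fit to only the 6 arrays compared called 4 members.

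**Figure D2:**
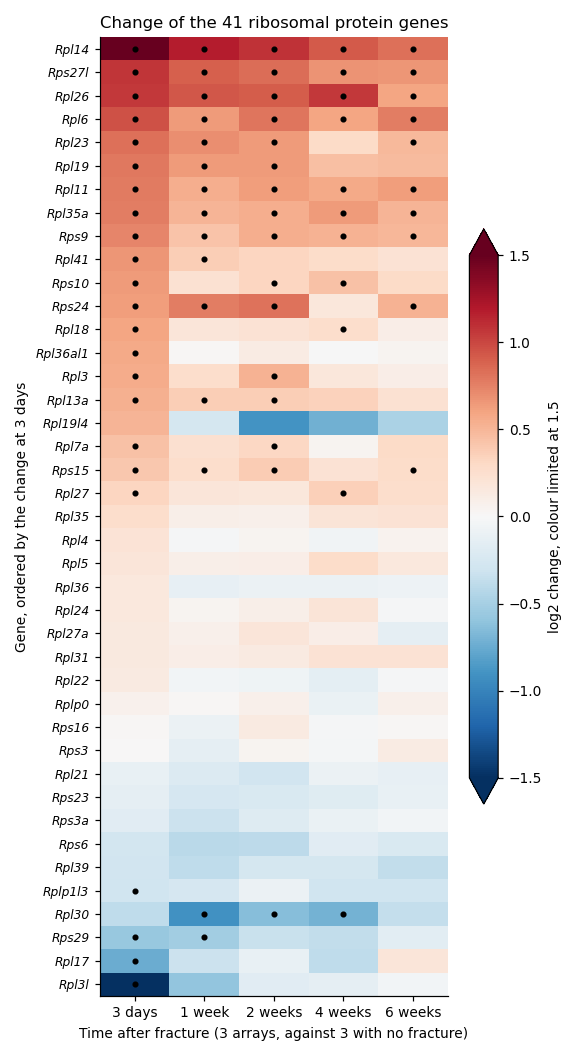
Colour gives the log2 change of each of the 41 genes (vertical axis, ordered by the value at 3 days) at each time after fracture against no fracture (horizontal axis), with 3 arrays per time, and a dot marks an adjusted p below 0.05. Of the members 7 carry a dot in the higher direction at all 5 times, from Rpl14 at the top, and 17 carry none.

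Rpl14, a protein of the large subunit, rose most. Its signals with no fracture were 1776, 1377 and 1239 in young, adult and older rats, and at 3 days 4267, 3851 and 4498. The log2 change was 1.54 ± 0.16 (SE), or 2.90-fold (adjusted p = 5.2e-05). On the 12 arrays from 1 week on the signal was 2287 to 3334, so that no fractured array reached down to the controls. The log2 changes at 1, 2, 4 and 6 weeks were 1.18, 1.08, 0.92 and 0.83, all past the threshold (largest adjusted p = 0.0083).

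Rps27l encodes a close relative of the small subunit protein Rps27 and is known as a target of p53. Its signals were 2006, 1689 and 2005 with no fracture and 3735, 4573 and 3683 at 3 days. It rose by 1.07 ± 0.14 on the log2 scale (2.10-fold, adjusted p = 0.00021). It remained higher at every later time, with changes of 0.90, 0.84, 0.68 and 0.67, and its lowest fractured array (2609) lay above its highest control. The parent gene Rps27 was not a member under the rule and is not given here.

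Rpl26, which also binds the p53 messenger RNA, had signals of 6762, 4616 and 5187 with no fracture and 11431, 11212 and 11554 at 3 days. The change was 1.06 ± 0.17 (2.09-fold, adjusted p = 0.00064). At 4 weeks it was again 1.06, with 9849, 12294 and 12001, and at 6 weeks 0.59. All 15 fractured arrays (7063 to 12294) stood above the controls. A second, slightly dimmer probe set of Rpl26 rose less, by 0.395, 0.31, 0.29, 0.31 and 0.45 in order of time. It was not called at 2 and 4 weeks (adjusted p = 0.062 and 0.060 by limma).

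Rpl6, of the large subunit, rose from 4537, 4133 and 4444 to 7420, 10117 and 8077 at 3 days (0.95 ± 0.12, adjusted p = 0.00017). It was higher at all later times, with log2 changes between 0.59 at 4 weeks and 0.80 at 2 weeks. A dimmer probe set of Rpl6 was not called at 6 weeks (0.49, adjusted p = 0.105 by limma). Rpl23, one of the proteins that bind the p53 regulator Mdm2, rose from 8014, 6695 and 6306 to 13109, 12992 and 11101 (0.83 ± 0.11, adjusted p = 0.00025). Rpl23 was past the threshold at every time but 4 weeks (0.29, adjusted p = 0.091). A dimmer probe set of Rpl23 was called higher at all 5 times, also at 4 weeks (0.38, adjusted p = 0.032 by limma).

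Of the remaining genes, Rpl11, Rpl35a and Rps9 were also called higher at all 5 times. Rpl11, which with Rpl5 and 5S ribosomal RNA forms the particle that binds Mdm2, had signals of 5831, 6763 and 7616 with no fracture and 11199, 11795 and 11408 at 3 days. Its log2 changes were 0.78, 0.54, 0.62, 0.57 and 0.62 in order of time. A dimmer probe set of Rpl11 rose less, by 0.49, 0.29, 0.31, 0.21 and 0.40, and was not called at 4 weeks (adjusted p = 0.12 by limma). Rpl35a, one of the genes mutated in Diamond-Blackfan anaemia, changed by 0.77, 0.51, 0.55, 0.64 and 0.51. Rps9, of the small subunit, changed by 0.73 at 3 days (adjusted p = 7.9e-05) and by 0.43 to 0.55 later. The 3-day values of each of these genes lay above its 3 controls.

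With Rpl23, 12 genes were called higher at some times only by the probe set that stood for each, all of them at 3 days. Rps24, another Diamond-Blackfan gene, stood out among them because it was highest at 1 and 2 weeks. Its signals were 324.0, 215.1 and 276.9 with no fracture, 522.8, 369.0 and 364.1 at 3 days and 698.9, 360.4 and 378.9 at 1 week. The log2 change went from 0.62 at 3 days to 0.77 and 0.81 at 1 and 2 weeks, 0.17 at 4 weeks (adjusted p = 0.48) and 0.52 at 6 weeks. Rpl36al1, named as a relative of Rpl36a, was called at 3 days alone (0.57, adjusted p = 0.015) and changed by 0.02 at 1 week. Rpl41, one of the smallest of all proteins, changed by 0.66 at 3 days and 0.37 at 1 week and by less than the threshold required afterwards. The rest were Rpl13a, Rpl18, Rpl19, Rpl27, Rpl3, Rpl7a, Rps10 and Rps15, with 3-day changes of 0.32 (Rpl27) to 0.79 (Rpl19). Dimmer probe sets of Rpl27 and Rpl13a did not rise at 3 days (-0.44 and -0.04, not called).

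Rpl3 and Rpl3l went opposite ways. Rpl3 sits at the peptide-bond centre of the large subunit, and Rpl3l is the form that replaces it in heart and skeletal muscle. Rpl3l signals were 837.1, 1375 and 1448 with no fracture and 277.2, 338.2 and 211.1 at 3 days. This was a fall of 4.38-fold (log2 change -2.13 ± 0.24, adjusted p = 7.9e-05), and the groups did not overlap. At 1 week the signals were 1011, 789.7 and 602.8 (-0.60, adjusted p = 0.076). From 2 weeks on they lay between 927.6 and 1239, with log2 changes over the 3 ages of -0.16, -0.14 and -0.04. The young signals then lay above their own control, and the adult and older signals below theirs. Rpl3 had signals of 7610, 9111 and 7845 with no fracture and 11921, 15079 and 9598 at 3 days (0.56 ± 0.17, adjusted p = 0.026). It was called again at 2 weeks (0.52) and not at 1, 4 or 6 weeks (0.26, 0.17 and 0.09). A dimmer probe set of Rpl3 was called higher at all 5 times, with changes of 0.98, 0.70, 0.72, 0.63 and 0.56 (largest adjusted p = 0.0045). A second probe set of Rpl3l also fell (-3.04 at 3 days and -1.29 at 1 week, both called). At 2, 4 and 6 weeks it was at -0.70, -0.43 and -0.35, not called.

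The 14 skeletal muscle genes moved with Rpl3l. Their summed signal was 150415 to 170263 with no fracture, 40088 to 52255 at 3 days, 91201 to 124644 at 1 week and 121841 to 174417 from 2 weeks on. Of the 14 genes 13 were lower at 3 days (median log2 change -2.14), 5 at 1 week (-0.65) and 0 at the later times. No muscle gene was below the floor on any array. The part of muscle in the fall of Rpl3l was not tested.

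**Figure D3:**
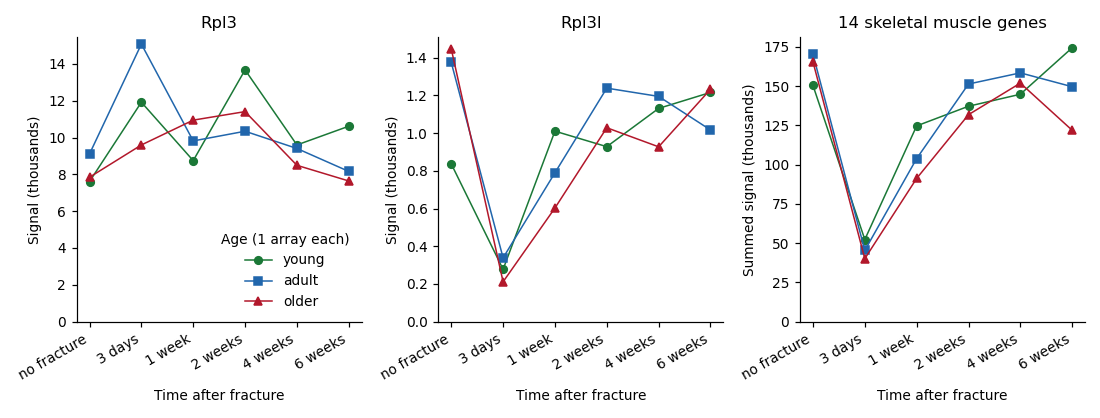
The 3 panels give the signal of Rpl3, the signal of Rpl3l and the summed signal of 14 skeletal muscle genes (vertical axes, signal divided by 1000) by time after fracture, with 1 line per age and 1 array per point. At 3 days Rpl3 is at 9598 to 15079, Rpl3l at 211.1 to 338.2 and the muscle sum at 40088 to 52255.

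The other members that fell did so by less. Rps29, a zinc-binding protein of the small subunit with the brightest probe set, had signals of 26426, 31864 and 25501 with no fracture, 19792, 18385 and 18309 at 3 days and 20057, 18425 and 19776 at 1 week. It fell by 0.56 ± 0.17 at 3 days (adjusted p = 0.022) and by 0.52 at 1 week (adjusted p = 0.035), with no overlap, and was not called later. After quantile normalization the changes at 3 days and 1 week were 0.00 and 0.10, so the direction of Rps29 depended on the scaling.

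Rpl17, which lines the exit of the peptide tunnel, was read at low signal. Its values were 284.0, 255.5 and 207.1 with no fracture and 204.2, 111.1 and 141.3 at 3 days (-0.74 ± 0.22, adjusted p = 0.021). Each age fell, and no 3-day array reached the lowest control. Rpl30, of the large subunit, fell later. It had signals of 308.6, 260.7 and 281.5 with no fracture, 232.2, 214.6 and 207.7 at 3 days (-0.38, adjusted p = 0.14) and 158.3, 166.5 and 129.2 at 1 week (-0.91 ± 0.19, adjusted p = 0.0039). It was also lower at 2 and 4 weeks (-0.64 and -0.71). Rplp1l3 was called lower at 3 days (adjusted p = 0.032), but its signals were 25.6, 29.3 and 7.0 with no fracture and 11.7, 16.9 and 13.1 at 3 days. Only 2 controls lay above the floor, and no fold is given.

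No call was made at any time for 17 members, by the probe set that stood for each. Among them, dimmer probe sets of Rps3, Rps6 and Rpl35 were called higher at all 5 times. Rplp0, the base of the stalk that recruits translation factors and a common reference gene for normalization, had signals of 12603, 15024 and 12496 with no fracture and 13961, 16044 and 12124 at 3 days. Its log2 changes were 0.07, 0.01, 0.07, -0.10 and 0.07 with an SE of 0.12. Rps16, Rpl27a and Rpl31 changed by 0.02, 0.15 and 0.15 at 3 days. Rpl5, the partner of Rpl11, had signals of 58.3 to 126.4 over all arrays and changed by 0.18 (adjusted p = 0.53). Rpl19l4, annotated as a relative of Rpl19, varied most without a call. Its signal ranged 10.9-fold, from 868.9 to 9435, and the highest value was that of the adult 3-day array.

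Fewer members differed from the controls as healing went on. At 1 week, when cartilage forms, 13 were higher and 2 (Rpl30 and Rps29) lower, with 18% of all probe sets higher and 17.8% lower, and the median was 0.09. At 2 weeks 15 were higher and 1 (Rpl30) lower, with 16.1% and 16.8% of probe sets, and the median was 0.13. At 4 weeks 10 were higher and 1 (Rpl30) lower, against 11.5% and 9.7%, with a median of 0.17. At 6 weeks 10 were higher and 0 lower, against 8.34% and 7.11%, with a median of 0.13. At each time the share of members called higher (31.7%, 36.6%, 24.4% and 24.4%) was above that of all probe sets and the share called lower was below it. The 4- and 6-week counts rested on the adult and the older arrays: 1 and 0 members were called without the adult arrays, and 0 and 0 without the older ones. At 1 and 2 weeks 6 and 5 members were called without the adult arrays and 7 and 5 without the older ones. Fits to only the arrays compared called 1 member at 1 week and 0 at the later times.

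The highest of the 5 time points was 3 days for 22 members, 6 weeks for 9, 2 weeks for 5 and 4 weeks for 5. It was 1 week for 0 members. Every member was counted, also those that fell or were not called. For Rpl3l, Rpl17 and Rps29, which fell at 3 days, the highest point was 6 weeks, when none of them was called. Of the 19 genes higher at 3 days 9 were no longer called at 6 weeks, and 0 genes were called higher at 6 weeks without being so at 3 days. All 5 comparisons share the same 3 control arrays, so these counts are not independent. By limma's F test over the 6 times 18 of 41 members (43.9%) changed, against 36.3% of all probe sets.

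Members did not shift by a common amount. Each array's signals were also taken relative to the median of the 41 genes on that array and compared with no fracture. By this measure 4 members rose and 15 fell at 3 days. Rpl14, Rps27l and Rpl26 rose furthest (1.05, 0.58 and 0.57) and Rpl3l, Rpl17 and Rps29 fell furthest (-2.62, -1.23 and -1.05). These are changes and not positions: at 3 days the signal of Rpl14 lay below the members' median and that of Rps29 above it. The counts were 6 and 10 at 1 week, 5 and 10 at 2 weeks, 3 and 4 at 4 weeks and 2 and 5 at 6 weeks. The members' median log2 signal was 12.59, 12.71 and 12.46 in young, adult and older rats with no fracture. At 3 days it was 13.08, 13.17 and 12.98, a larger rise than the median change of the members (0.26). Subtracting that rise tilts the 3-day counts toward falls. Relative to the members' median Rpl14 rose at all 5 times, and Rpl39, of the tunnel wall, fell at all 5 (-0.77 at 3 days). Taken relative to the same median, 65%, 52%, 56.5%, 30.3% and 34.5% of all probe sets passed at the 5 times. The members' median is subtracted from every probe set here, so these shares are no yardstick for the members. Benjamini-Hochberg adjustment also ran over all these probe sets, so the members' calls by this measure rest on a looser threshold than the main calls. Rpl31, for example, was called at 3 days with a change of -0.34 ± 0.14 (SE, adjusted p = 0.048 by limma).

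Change was also set against brightness at 3 days. The 8 genes with a mean signal over 10000 had a median log2 change of 0.11 at 3 days and 1 of them was called higher. The 27 genes between 1000 and 10000 had a median of 0.53, and 17 were called higher. Over the 35 genes above 1000 the rank correlation of change with mean signal was -0.41 at 3 days and -0.19, -0.11, -0.19 and -0.19 at the later times. Over all 41 genes it was -0.05, 0.04, 0.07, 0.08 and -0.03. These are descriptions across genes that share the same arrays. The 90 probe sets of the whole array over 10000 had a median of -0.46 at 3 days.

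Where a gene had several probe sets, they often moved by different amounts. At 3 days all probe sets of a gene had the same sign in 9 of the 15 genes, and no gene had one probe set called higher and another called lower (0 of 15). Rps6, which S6 kinase phosphorylates below mTOR, is the clearest case. Its brighter probe set had signals of 14337, 14845 and 9866 with no fracture and 11651, 9570 and 10596 at 3 days (-0.28, adjusted p = 0.22). The dimmer one had 4307, 3357 and 3243 and then 6414, 5763 and 5983 (0.75, adjusted p = 0.0023), with no overlap. For Rps3, of the messenger RNA entry channel, the brighter probe set changed by 0.00 and the dimmer by 0.93 (adjusted p = 8.1e-05). For Rpl35 the values were 0.26 (not called) and 0.91 (adjusted p = 0.00013). Rps15 had probe sets at 0.41, 1.32 and -0.15, the last not called. The pair of Rpl6 lay at 0.95 and 0.98 and that of Rps29 at -0.56 and -0.57.

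**Figure D4:**
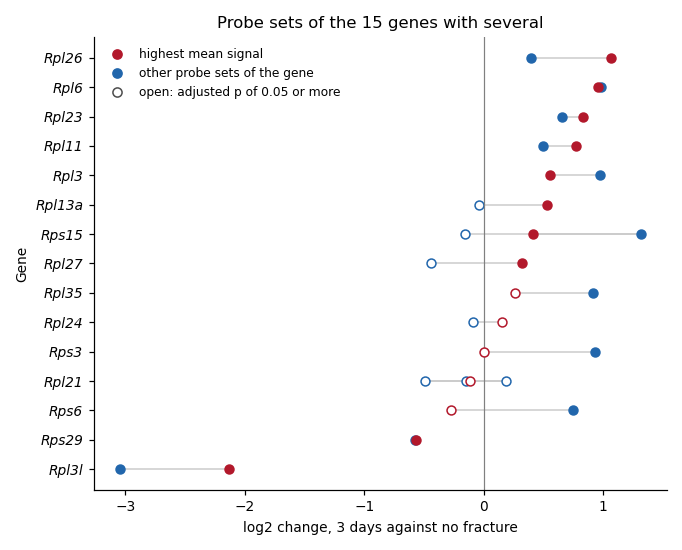
Each point is a probe set of the 15 members that have several, with its log2 change at 3 days against no fracture on the horizontal axis and the gene on the vertical axis; the brightest probe set of a gene is red, the others blue, and open points have an adjusted p of 0.05 or more. Rps6, Rps3 and Rpl35 have an open red point and a filled blue point at 0.75, 0.93 and 0.91.

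Other genes of protein synthesis were compared as lists. Over all probe sets 18.9% were called higher and 20.4% lower at 3 days, and 8.34% and 7.11% at 6 weeks. Of 14 mitochondrial ribosomal protein genes, which serve the organelle's own ribosome, 6 were higher and 0 lower at 3 days (median 0.46). Mrps6 (1.07), Mrpl23 (1.01), Mrps11 (0.95) and Mrpl40 (0.78) had the largest changes, and Mrps6 and Mrpl23 were called at all 5 times. At 6 weeks 2 of the 14 were higher and Mrpl3 was lower (-0.60).

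Of 21 translation initiation and elongation factors 10 were higher and 3 lower at 3 days (median 0.39), against 18.9% and 20.4% of all probe sets. Eif2b1, a subunit of the exchange factor for the initiation factor eIF2, rose by 1.14, Eef1g, of the elongation complex, by 1.12 and Eif2s1, a subunit of eIF2, by 0.99. Another exchange factor subunit, Eif2b3, was lower, most at 4 weeks (-1.09). By 6 weeks 2 of the 21 were higher and 2 lower, against 8.34% and 7.11% of all probe sets. Of 6 other genes whose messenger RNAs carry the pyrimidine tract 2 rose at 3 days, Eef1g and the splicing protein gene Hnrnpa1 (1.11), and Nap1l1, a histone chaperone, fell (-1.15, and -1.84 at 1 week). Rpsa, the laminin-binding small subunit protein whose symbol falls outside the rule, changed by 0.39 (adjusted p = 0.0496) and Rack1, on the head of the small subunit, by 0.25 (adjusted p = 0.15).

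Of the genes that build ribosomes 5 of 10 were higher and 2 lower at 3 days (median 0.21), against 18.9% and 20.4% of all probe sets. The snoRNP protein gene Nop58 rose by 1.68 (adjusted p = 2.0e-05), Polr1a, the large subunit of RNA polymerase I, by 2.33 at low signal and the RNA polymerase I factor gene Ubtf by 0.92. Tcof1 fell by 1.16 at 3 days and by 1.41 at 2 weeks, also at low signal. Nucleolin (Ncl) rose by 0.71 at 3 days and changed by -0.04 at 1 week. Of these 10 genes 3, 1, 1 and 1 were higher and 3, 3, 2 and 2 lower at 1, 2, 4 and 6 weeks. Their medians were -0.21, -0.12, -0.15 and -0.14. Of all probe sets 18%, 16.1%, 11.5% and 8.34% were higher and 17.8%, 16.8%, 9.7% and 7.11% lower at these times. Of 16 genes of growth signalling 5 were higher and 2 lower at 3 days (median 0.07), against 18.9% and 20.4% of all probe sets. Myc, a driver of ribosome building, rose by 1.10, the S6 kinase gene Rps6kb1 by 1.03 and the kinase gene Akt2 by 1.20 (1.35 at 1 week), while Mxi1, an antagonist of Myc, fell by 1.87. Mtor itself changed by 0.11 (adjusted p = 0.77).

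Few members differed between ages. Older against young rats over the 6 times, 0 members were higher and 2 lower, against 0.446% of all probe sets called in either direction. Rpl17 was lower by 0.90 on the log2 scale (adjusted p = 0.045): its signal was 204.2 to 488.5 with a median of 300.6 in young rats and 111.4 to 207.1 with a median of 177.0 in older rats, which overlapped. Rps24 differed by -0.59 (adjusted p = 0.048), with 324.0 to 698.9 (median 532.3) in young and 263.8 to 378.9 (median 333.3) in older rats. At each of the 6 times the older value of each of these genes lay below the young one. Both are dim probe sets, and the 2 calls became 1 or 0 when the arrays of any one time were left out.

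Over all 41 genes the older-against-young median was -0.10 (all probe sets -0.01), with 35 genes below and 6 above 0. Markers of other cells had older-against-young medians of -1.78 (5 neutrophil genes), -1.02 (9 red cell precursor genes), -0.37 (16 matrix genes, 1 called lower) and -0.16 (14 skeletal muscle genes), and their part was not tested. Adult against young rats, 0 members were called, 2 had an unadjusted p below 0.05 by limma (Rpl17 at -0.69 and Rps24 at -0.54), and 0.0801% of all probe sets were called. The highest of the older-against-young values were those of Rpl7a, Rpl14 and Rpl18 (0.04, 0.04 and 0.02). The third gene on the lower side was Rpl30 (-0.45, adjusted p = 0.16).

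The age difference was also taken within phases of healing. At 1 and 2 weeks 0 members and 0% of all probe sets were called by limma, and 4 members had an unadjusted p below 0.05. The lowest p-values on the lower side were those of Rpl17 (-0.75, adjusted p = 0.21), Rps24 (-0.81, adjusted p = 0.27) and Rpl19l4 (-1.29, adjusted p = 0.32). At 4 and 6 weeks 2 members were lower in older rats, against 1.24% of all probe sets. Rpl17 had signals of 317.3 and 488.5 in young and 111.4 and 184.1 in older rats (-1.46, adjusted p = 0.032). Rpl30 had 216.6 and 295.5 in young and 118.2 and 142.7 in older rats (-0.96, adjusted p = 0.034). Rps23, of the decoding centre, followed at -0.51 (adjusted p = 0.088), and Rps27l, Rpl14 and Rpl19 on the higher side changed by 0.13, 0.21 and 0.23 and were not called.

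Whether the difference at 4 and 6 weeks departed from that with no fracture was tested as an interaction. It called 0 members and 3.02% of all probe sets, and 3 members had an unadjusted p below 0.05 by limma. These were Rpl30 (-0.83, adjusted p = 0.081), Rpl17 (-1.003, adjusted p = 0.12) and Rpl11 (-0.47, adjusted p = 0.22). The phase fit had 4 residual degrees of freedom.

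**Figure D5:**
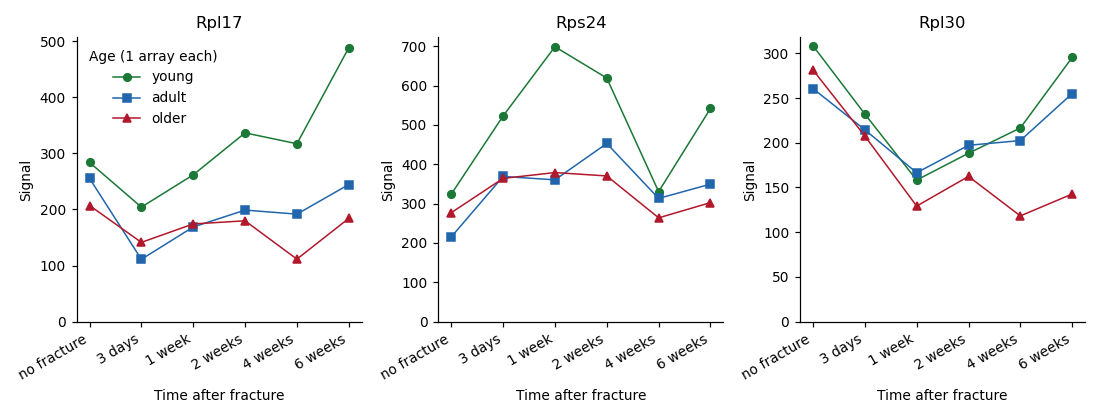
The panels give the signal (vertical axis) of Rpl17, Rps24 and Rpl30 by time after fracture (horizontal axis), with 1 line per age and 1 array per point. For Rpl17 and Rps24 the older line lies below the young line at each of the 6 times, and for Rpl30 the older values at 4 and 6 weeks are 118.2 and 142.7 against 216.6 and 295.5.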

How the data were processed

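RNA of the femoral segment was measured on Affymetrix Rat U34A arrays. The deposited values are signal intensities that the authors computed with Affymetrix Microarray Suite from perfect match and mismatch probes and scaled to a common mean per array. Arrays have no read depth, and the number of arrays limits the precision. Of 8799 probe sets 59 controls were left out. Gene names came from the platform annotation: 7006 probe sets name 1 gene, 308 several and 1426 none. Among these, 40 ribosomal probe sets that name several genes, 3 of pseudogenes and 2 of Rps6k genes were not members. Near-identical gene copies may share probe signal. Of the members 40 were matched to RefSeq by gene ID and Rps9 by symbol.

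A floor of 20 was set under the signals before the log2 was taken. limma 3.58.1 in R 4.3.3 was fitted with time and age as additive factors (10 residual degrees of freedom) and a trend in the moderation, and a second fit nested age in phases of healing. Every adjusted p is limma's Benjamini-Hochberg value over the 8740 probe sets tested. No list was tested as a set: lists are described by counts and medians. The members and lists were chosen with earlier results of these data known. Genes were named by rule: the 5 largest called changes each way at each time with one sign at all 3 ages. The rule added the 3 lowest p-values each way for ages and the 5 brightest and dimmest genes. Further came the 3 largest called changes each way relative to the members' median. Rplp0, Rpl3 with Rpl3l, Rps27l, and up to 4 genes per related list completed it. Other genes named were chosen after their values were seen. The script was tested on simulated data. Alternatives were other scalings, floors, filters, models and probe sets, a t-test, and leaving out arrays.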

Additional observations from a re-analysis of the deposited data

Results flagged for a closer look

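Single arrays that stood apart from the other 5 of their age by Dixon's ratio at its 95% critical value were found in 12 of 81 cases tested, over 27 measures. Chance alone gives about 1 in 20 in homogeneous groups, and the 6 arrays of an age are of different times, so a time that differs from the rest is picked out as well. In young rats these were the arrays with no fracture for Rpl26 (6762), Rpl6 (4537) and Rpl11 (5831), each the lowest, and the 3-day arrays for Rpl3l (277.2, lowest) and Rpl18 (7704, highest). In adult rats the array with no fracture was lowest for Rpl14 (1377), Rps27l (1689) and Rpl35a (3146) and highest for Rpl39 (9101). The adult 3-day array had the highest share of the array's signal (5.554%), and the adult 6-week array was lowest for Rpl27a (8802, against 13493 to 15299 on the other adult arrays). In older rats the array with no fracture was highest for Rps29 (25501). Of the 12, 8 were arrays with no fracture and 3 were 3-day arrays.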

How the results depend on the processing

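Medians of the members at 3 days to 6 weeks and of older against young rats kept their sign under every alternative run. Among values of single genes 324 kept their direction and side of the threshold, 90 were no longer called and 2 reversed, those of Rps29 at 3 days (0.0048) and 1 week (0.10) after quantile normalization. In order of time (3 days, 1, 2, 4 and 6 weeks) the main counts of members called were 23, 15, 16, 11 and 10. Fits to only the arrays compared called 4, 1, 0, 0 and 0. A t-test called 10, 7, 8, 1 and 4 at p below 0.005 and, after Benjamini-Hochberg adjustment, 15, 10, 7, 0 and 0. The methods set a p of 0.005 for comparing a fractured with an unfractured sample by the array software, and not for their t-tests. With the actin ratio as a covariate 13, 7, 9 and 1 were called at 3 days to 4 weeks, with a 3-day median of 0.41. Leaving out one age gave ranges of 13 to 18, 6 to 10, 5 to 11, 0 to 7 and 0 to 7. Median centring called 6 at 6 weeks. With the probe sets that name several genes, an alternative chosen after seeing the data, 47, 37, 35, 29 and 26 probe sets were called and the 3-day median was 0.42. Quantile normalization gave medians of 0.47 at 3 days and 0.22 at 4 weeks. Other 4-week medians that moved were 0.11 (median centring), 0.0947 (floor of 100), 0.12 (mean over probe sets), 0.12 (without older rats) and 0.12 (dimmest probe set, also chosen after seeing the data). The 2 calls of older against young rats became 1 after quantile normalization or median centring, 0 with the floor of 100, the actin covariate, no time term, only the arrays compared or the adjusted t-test, and 0 to 1 when one time was left out. Those at 4 and 6 weeks became 1 with either scaling and 4 with a mean signal of 200 or more, and the interaction called 1 member without the trend. The adult-against-young median of -0.01 became 0.0211 with median centring and ranged from -0.0567 to 0.0104 when one time was left out, above 0 without the 2-week arrays. Times were compared within ages, since age is a factor of the fit, and without the age term 21, 14, 14, 10 and 9 members were called. Signal near the floor limits Rplp1l3. The cause of these differences was not tested.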

Other observations

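Besides the members, 40 probe sets named a ribosomal protein gene together with other genes. By limma 23 of them were higher and 1 lower at 3 days, with a median log2 change of 0.46. Over all probe sets 18.9% were higher and 20.4% lower at that time. The counts higher and lower were 19 and 3 at 1 week, 18 and 1 at 2 weeks, 17 and 1 at 4 weeks and 16 and 0 at 6 weeks, with medians of 0.30, 0.32, 0.28 and 0.27. Which of the genes each of these probe sets reads was not tested.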
